A study of Caenorhabditis elegans with 23 samples.

Results

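The genes described here encode the proteins of the cytosolic ribosome of the nematode Caenorhabditis elegans. They were taken by symbol, as every gene named rpl or rps with a number, plus 3 genes of the acidic stalk, rplp-0, rplp-1 and rplp-2.2, formerly rla-0, rla-1 and rla-2. Another stalk gene, rplp-2.1, lies outside this rule, and "the stalk genes" below means these 3. Of 81 such genes in the reference gene table, 78 were measured by a probe set that names 1 gene only, out of 17118 genes measured that way on the array. They comprise 45 genes of the large subunit, 30 of the small subunit and the 3 stalk genes, each read from its brightest probe set. The other 3, rpl-37.1, rpl-37.2 and rpl-18A, were not read singly.

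The cytosolic ribosome translates the messages of the nucleus, and its small subunit reads the codons while its large subunit joins the amino acids. Each ribosome carries most of these proteins in a single copy, growing cells make them in large and matched amounts, and the TOR pathway adjusts their production to nutrients. In C. elegans the germ line holds a large share of an adult's biosynthetic cells, and a few ribosomal proteins are encoded by a pair of genes, one of which may lie on the X chromosome.

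Transcripts were measured in whole worms on 23 arrays of 1 sample each. The worms were glp-1(e2141ts) or wild type (WT, strain N2). The glp-1 allele is temperature-sensitive and affects the Notch-type receptor by which germline stem cells are maintained, and the labels describe the mutant as having few germ cells. Each genotype was treated with ash-2 RNAi, against a subunit of the complex that trimethylates lysine 4 of histone H3, or with the empty vector (EV), and collected at L3 (a larval stage) or on day 8. All were grown at 20 degrees per the labels, which do not say whether glp-1 worms saw a restrictive temperature. Each of the 8 groups has 3 arrays except day 8 WT EV, which has 2 because the submitters left out the third for quality. Whether replicate arrays stem from separate cultures is not in the labels, so p-values measure only the spread between arrays, which may be technical. In the tests each gene's variance was drawn toward that of all probe sets, which typically vary more than these genes. In RNA of whole worms, fewer cells of a type and less RNA per cell cannot be told apart.

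The values are log2 intensities, and a difference of 1 is a doubling. The array number per group limits the precision. Arrays of a group correlated at 0.983 to 0.998 over all probe sets. Of the 4 probe sets that name ash-2, the 3 that can bind several transcripts were higher under RNAi by 4.54 to 8.29 in the 4 comparisons, while the fourth was lower by 1.82 in day 8 WT and did not pass the test elsewhere (-0.40 to -0.24). At L3, 2 glp-1 arrays stood apart from their groups in oocyte markers, namely ash-2 RNAi replicate 1, lowest of its group in 9 of 10 markers, and EV replicate 3, lowest in 10 of 10. For example, the eggshell gene cpg-2, chosen after its values were seen, read 4.27 and 4.19 on these 2 arrays and 7.68 to 9.77 on the other 4.

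The ribosomal protein genes were among the brightest on every array, and their level set the day 8 glp-1 worms apart from the other groups. The median of the 78 genes stood between the 99.1 and the 99.7 percentile of its array on all 23 arrays. At L3 the median averaged 13.75 ± 0.016 in glp-1 worms under ash-2 RNAi, 13.79 ± 0.024 in glp-1 worms under EV, 13.84 ± 0.017 in WT worms under ash-2 RNAi and 13.84 ± 0.035 in WT worms under EV (SD, n = 3 each). On day 8 it averaged 12.71 ± 0.072 in glp-1 worms under ash-2 RNAi and 12.53 ± 0.048 in glp-1 worms under EV (SD, n = 3 each), against 13.38 ± 0.033 in WT worms under ash-2 RNAi (SD, n = 3) and 13.33 ± 0.045 in WT worms under EV (SD, n = 2). The day 8 glp-1 arrays lay between 12.48 and 12.78, below the range of 13.30 to 13.40 of the day 8 WT arrays.

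**Figure D1:**
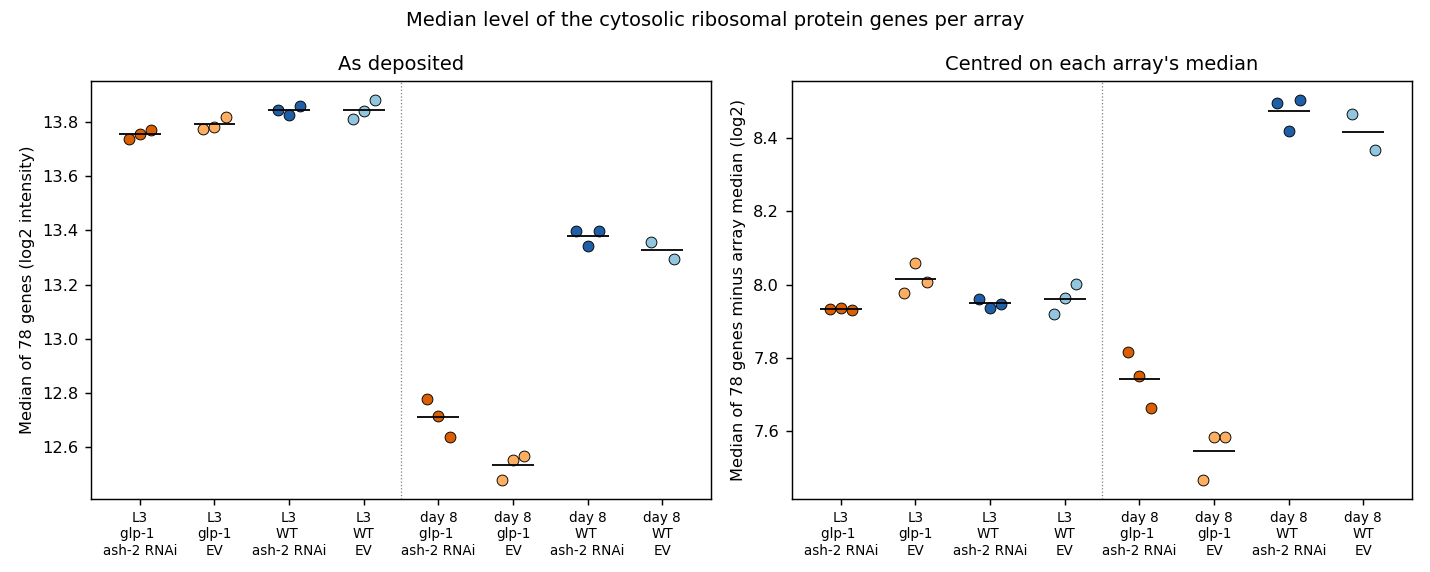
Each point is the median log2 intensity of the 78 ribosomal protein genes on 1 array, as deposited (left) and minus the median of all probe sets of that array (right), and each bar is the mean of a group. The day 8 glp-1 arrays lie below the day 8 WT arrays in both panels, while the 4 groups at L3 lie close together in both.

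Centring each array on its own median left that separation on day 8. The centred median of the genes averaged 7.74 ± 0.077 in glp-1 worms under ash-2 RNAi and 7.54 ± 0.067 in glp-1 worms under EV, against 8.47 ± 0.046 in WT worms under ash-2 RNAi and 8.42 ± 0.069 in WT worms under EV (SD). At L3 the centred averages were 7.93, 8.01, 7.95 and 7.96 in the same order of groups. The genes varied little within a group, with a median SD per gene of 0.03 to 0.08 against 0.10 to 0.17 over all probe sets. Most probe sets are far dimmer, and the spread was not compared with that of equally bright ones, so it may not be particular to these genes.

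Levels at the 2 ages cannot be set against each other with confidence, because the arrays of the ages appear to have been normalized apart. The array medians were 5.72 to 5.91 at L3 and 4.89 to 5.01 on day 8. As deposited, the median gene was 0.52 lower on day 8 than at L3 in WT worms under EV (a difference of -0.52), but centring on the array medians turned this to 0.45 and centring on bright probe sets gave -0.01. In glp-1 worms under EV the same difference was -1.22 as deposited, -0.43 centred on the array medians and -0.90 centred on bright probe sets. Under ash-2 RNAi it was -1.08, -0.22 and -0.77 in glp-1 worms, and -0.49, 0.50 and 0.04 in WT worms. No test was made between the ages, and only the glp-1 worms kept 1 sign under all 3 scales.

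On day 8 under EV, nearly all ribosomal protein genes were lower in glp-1 worms than in WT worms. Of the 78 genes, 74 fell and 2 rose at an adjusted p under 0.05 (limma, Benjamini-Hochberg over all 22548 probe sets), whereas 26.6% of all probe sets fell and 28.3% rose. The median difference was -0.74, which is 1.67-fold lower, and the middle of the distribution was narrow, with quartiles at -0.86 and -0.62. The median over all probe sets was 0.04. Every glp-1 array was below both WT arrays for 75 genes (96.2%), compared with 32.3% of all probe sets, and above them for 2 genes (2.56%), compared with 36.9%. At least 2-fold lower were 10 of the 78 genes, but the share of all probe sets that far down is not given here. The sign held under every scaling tried, with a median of -0.82 after centring on the array medians and -1.01 after centring on bright probe sets.

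The subunits moved alike. In the large subunit 42 of 45 genes fell and 2 rose, with a median of -0.72. In the small subunit 29 of 30 fell, with a median of -0.75. The 3 stalk genes, whose products form the lateral arm that recruits translation factors, all fell. The stalk base gene rplp-0 read 12.19, 12.24 and 12.35 in glp-1 worms and 13.09 and 13.12 in WT worms, so that the groups did not overlap, a difference of -0.84 ± 0.12 (SE, adjusted p = 6.13e-05). The differences of rplp-1 and rplp-2.2 were -0.89 ± 0.13 and -0.84 ± 0.11 (SE).

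**Figure D2:**
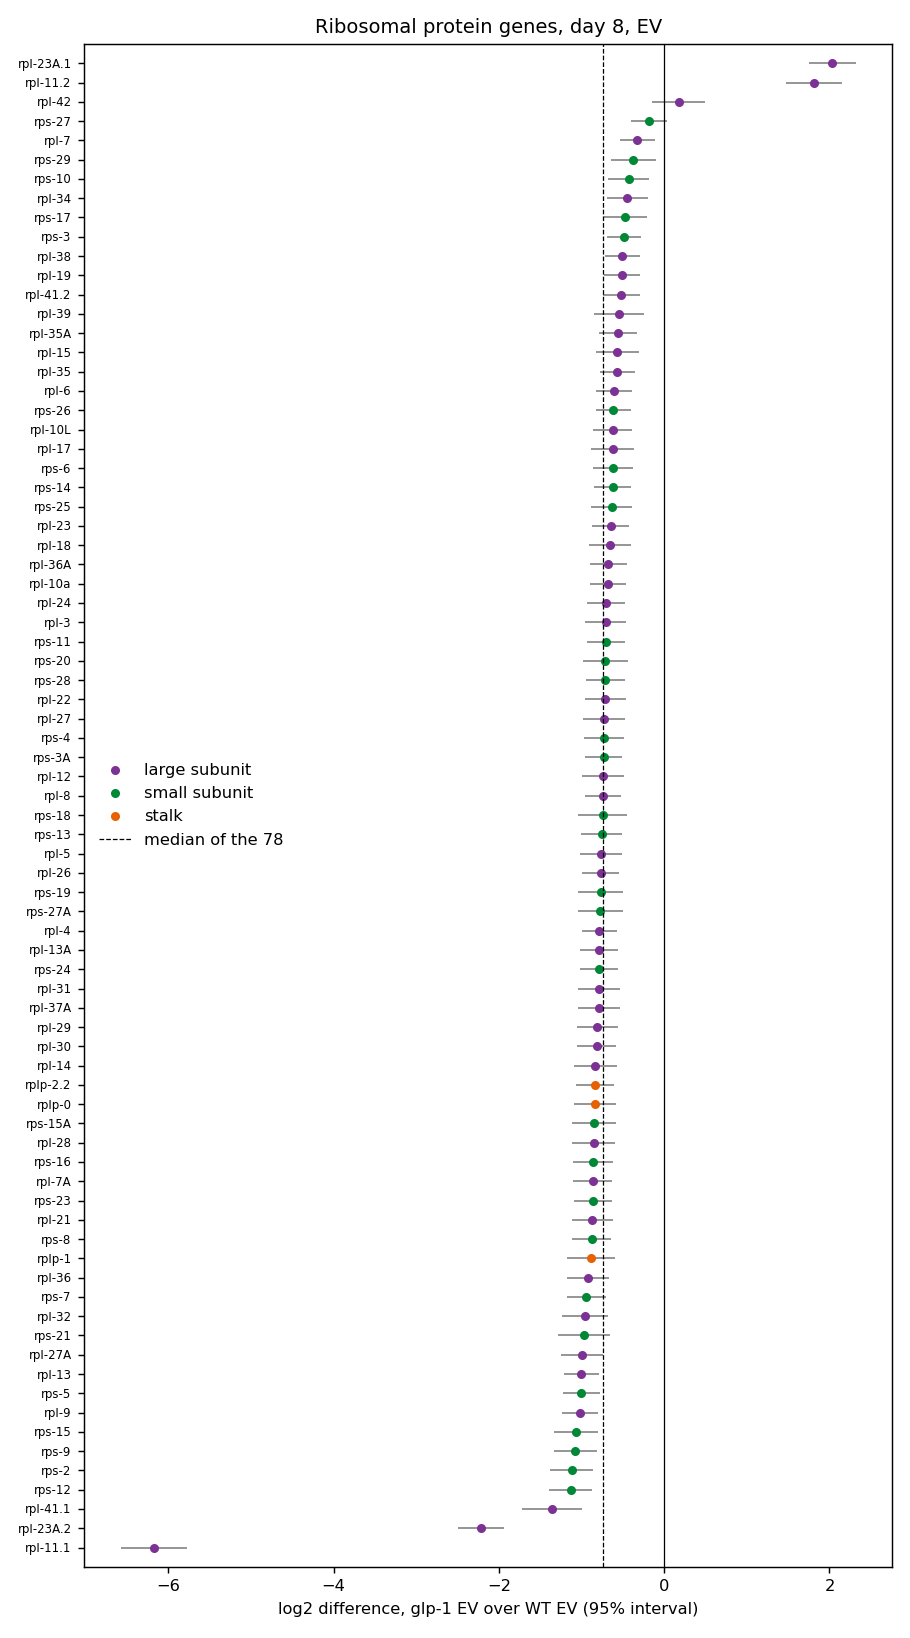
The log2 difference of each of the 78 genes between glp-1 and WT worms on day 8 under EV, ordered by size, with 95% intervals from limma and colours for subunits. The genes crowd around the dashed median of -0.74, with rpl-11.1, rpl-23A.2 and rpl-41.1 below the rest, rpl-23A.1 and rpl-11.2 well above 0, and rpl-42 and rps-27 with intervals that hold 0.

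Outside the numbered gene pairs, the 3 deepest falls were those of rps-12, rps-2 and rps-9. The gene rps-12, known in Drosophila for its part in cell competition, read 11.81, 11.94 and 12.07 in glp-1 worms, against 13.08 and 13.06 in WT worms. The glp-1 arrays were all below the WT arrays, a difference of -1.13 ± 0.12 (SE, adjusted p = 5.91e-06). The genes rps-2 and rps-9 encode proteins near the decoding site, and mutations in their yeast counterparts alter the accuracy of translation. For rps-2 the values were 12.23, 12.48 and 12.50 in glp-1 worms and 13.51 and 13.54 in WT worms, a difference of -1.12 ± 0.12 (SE). For rps-9 they were 12.20, 12.29 and 12.47 in glp-1 worms and 13.36 and 13.43 in WT worms, a difference of -1.07 ± 0.12 (SE). Neither gene had an array of one genotype within the range of the other.

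Only rps-27 and rpl-42 passed in neither direction, and both are named because their values were seen to stand apart. The small subunit gene rps-27, for a zinc-binding protein, read 13.40, 13.39 and 13.25 in glp-1 worms and 13.49 and 13.57 in WT worms. Its groups did not overlap, but its difference was -0.18, with a 95% interval from -0.40 to 0.04 (adjusted p = 0.158). The probe set of rpl-42 was dim, at 3.90 to 5.04 on the 23 arrays and below the array median on each, so that it says little about the gene. The other 77 genes were above the array median on all arrays. Of the genes that fell, rpl-34, rpl-7 and rps-29 lost the call when 1 array was left out, in 1, 2 and 2 of 5 cases, and were named for that reason. Without WT EV replicate 1 none of these 3 passed, and the difference of rps-29 was -0.19 there, against -0.37 with all arrays. Without WT EV replicate 2 rpl-7 did not pass (-0.31), and without glp-1 EV replicate 2 rps-29 did not (-0.33).

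The same comparison under ash-2 RNAi used other arrays and gave a similar picture. Of the 78 genes, 72 fell and 2 rose, compared with 25.4% and 28.2% of all probe sets, and the median difference was -0.66. All glp-1 arrays were below all WT arrays for 74 genes (94.9%, against 28.7% of all probe sets). In the large subunit 40 of 45 fell, with a median of -0.66, and in the small subunit 29 of 30 fell, with a median of -0.63. The 3 stalk genes fell by 0.63, 0.87 and 0.65 in the order rplp-0, rplp-1, rplp-2.2. The deepest falls beyond the paralogous genes were those of rps-2 (-1.08 ± 0.10), rps-21 (-0.92 ± 0.13) and rpl-36 (-0.90 ± 0.10) (SE).

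Besides rps-27 (-0.08) and rpl-42 (0.11), the large subunit genes rpl-38 and rpl-41.2 did not pass under ash-2 RNAi. In mice rpl-38's counterpart is known for its effect on the translation of Hox messages. It read 13.11, 13.10 and 12.98 in glp-1 worms and 13.30, 13.29 and 13.25 in WT worms, and its groups did not overlap, but the difference of -0.21 ± 0.09 (SE) had an adjusted p of 0.0578. Across the 78 genes the differences of the 2 comparisons correlated at r = 0.98, and at r = 0.80 (rho 0.76) over the 73 genes left without rpl-42 and the rpl-11 and rpl-23A genes. These points are genes that share the same 11 arrays' normalization, so the value describes only how similar the 2 patterns are.

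Cell type markers also differed between the genotypes in the 2 day 8 comparisons. Of 12 germline marker genes, 12 were lower in glp-1 worms in each of these 2 comparisons, with medians of -5.07 under EV and -4.54 under ash-2 RNAi, and 9 of 10 oocyte markers were lower, with medians of -6.84 and -6.45. Of all probe sets 26.6% fell and 28.3% rose under EV, and 25.4% fell under ash-2 RNAi. The log2 of the summed germline marker signal was 9.73 to 9.87 in glp-1 worms under ash-2 RNAi and 9.81 to 9.96 in glp-1 worms under EV, against 14.25 to 14.45 in WT worms under ash-2 RNAi and 14.09 to 14.43 in WT worms under EV. In the glp-1 EV group 6 of the 12 germline markers were below the array median on every array, against 0 in the WT EV group. All 8 intestine and all 8 muscle markers were higher in glp-1 worms under EV, with medians of 3.20 and 2.18, and 6 of 8 neuron markers passed as higher. The part of these markers' cell types in the fall of the ribosomal protein genes was not tested.

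At L3 the ribosomal protein genes hardly differed between genotypes, although most of the array's probe sets did. Under EV, 3 of the 78 rose and 2 fell in glp-1 worms, compared with 33.4% and 22.1% of all probe sets. The median difference was -0.04, and its sign depended on the scale, since it was 0.064 after centring on the array medians, 0.0027 after quantile normalization and -0.11 after centring on bright probe sets. The array median itself averaged 5.78 in glp-1 worms and 5.88 in WT worms, and the median over all probe sets was 0.11. All glp-1 arrays were below all WT arrays for 12 genes (15.4%, against 23.2% of all probe sets) and above them for 3 genes (3.85%, against 37.9%). The calls split 2 higher to 4 lower after centring on bright probe sets.

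Of the 5 genes that passed at L3 under EV, 4 were rpl-11 and rpl-23A genes. The fifth was rps-27, at 14.20, 14.32 and 14.24 in glp-1 worms, while the highest of the 3 WT arrays read 14.07. All its glp-1 arrays were above the WT arrays, a difference of 0.21 ± 0.07 (SE, adjusted p = 0.0203), but the call was lost without WT EV replicate 1 (0.19) and without glp-1 EV replicate 2 (0.18). The stalk genes rplp-0, rplp-1 and rplp-2.2 differed by -0.01, -0.02 and 0.01, each with a 95% interval that reached no further than -0.16 or 0.17.

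Under ash-2 RNAi at L3, 2 of the 78 genes rose and 3 fell in glp-1 worms, against 28.1% and 20.8% of all probe sets. The median was -0.08, and it moved to -0.0032 after centring on the array medians and -0.020 after quantile normalization. All glp-1 arrays were below all WT arrays for 43 genes (55.1%, against 24% of all probe sets). These 43 genes share the same 6 arrays and are no separate observations. Beyond the rpl-11 and rpl-23A genes the only call was rps-16, at 13.64, 13.65 and 13.64 in glp-1 worms against 13.81, 13.81 and 13.84 in WT worms, a difference of -0.18 ± 0.07 (SE, adjusted p = 0.0372). Its groups did not overlap, yet the call was lost each time 1 of the 6 arrays was left out. The other probe set of rps-16 did not pass. Of the 78 genes 3 passed without replicate 1 or 2 of either genotype, and 17 passed with trended and robust variances (3 higher, 14 lower). The calls split 3 higher to 2 lower after centring on the array medians and 1 higher to 6 lower after centring on bright probe sets.

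Germline markers already differed at L3. All 12 germline markers were lower in glp-1 worms, with medians of -3.40 under EV and -3.18 under ash-2 RNAi, and 7 of 7 sperm markers were lower under EV. Of all probe sets 22.1% fell under EV and 20.8% under ash-2 RNAi. The summed germline marker signal was 10.34 to 10.80 in glp-1 worms under ash-2 RNAi and 10.31 to 10.47 in glp-1 worms under EV, against 13.49 to 13.58 in WT worms under ash-2 RNAi and 13.65 to 13.78 in WT worms under EV.

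The difference between the ages was itself tested as an interaction, the glp-1 over WT difference on day 8 minus that at L3, under EV. It was negative for 75 genes and positive for 2 at an adjusted p under 0.05 (limma, all 23 arrays), compared with 28.2% and 24.5% of all probe sets. The median interaction was -0.71, and it was -0.89 after centring on the array medians and -0.91 after centring on bright probe sets. In the stalk it was -0.83, -0.87 and -0.85 for rplp-0, rplp-1 and rplp-2.2. The gene rps-27, higher at L3 and not past the threshold on day 8, had an interaction of -0.40 ± 0.11 (SE, adjusted p = 0.00396). The 2 positive genes were rpl-11.2 and rpl-23A.1, and rpl-42 did not pass (0.21).

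The rpl-11 and rpl-23A gene pairs departed most from the other members on day 8. The protein of the rpl-11 pair binds the 5S RNA of the large subunit together with that of rpl-5, and in C. elegans the gene rpl-11.1 is known from mutants in which germ cells fail to proliferate. It lies on chromosome V and rpl-11.2 on the X chromosome. The protein of the rpl-23A pair sits where the new chain leaves the large subunit. There rpl-23A.2 lies on chromosome I and rpl-23A.1 on the X chromosome. All chromosomes are from the RefSeq gene table (assembly WBcel235).

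On day 8 rpl-11.1 read 6.88, 7.36 and 7.63 in glp-1 worms under EV, against 13.51 and 13.42 in WT worms under EV. Under ash-2 RNAi it read 8.73, 8.56 and 8.74 in glp-1 worms, against 13.50, 13.37 and 13.43 in WT worms. The genotypes lay far apart under both treatments, and the glp-1 arrays of the 2 treatments did not overlap. The difference was -6.17 ± 0.18 under EV (SE, 72.0-fold lower, adjusted p = 3.72e-10) and -4.76 ± 0.16 under ash-2 RNAi (SE, adjusted p = 7.00e-10). At L3 rpl-11.1 read 9.91, 9.95 and 9.69 in glp-1 worms under EV, against 13.50, 13.50 and 13.49 in WT worms under EV. There the difference was -3.65 ± 0.16 under EV and -3.24 ± 0.16 under ash-2 RNAi (SE), and without the 2 glp-1 arrays low in oocyte markers it was -3.57 and -3.02.

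The X-linked partner rpl-11.2 went the other way. On day 8 it read 12.49, 12.47 and 12.57 in glp-1 worms under EV and 10.43 and 10.97 in WT worms under EV. Under ash-2 RNAi the values were 12.87, 12.80 and 12.59 in glp-1 worms and 11.09, 11.09 and 11.01 in WT worms. All glp-1 arrays were above all WT arrays, by 1.81 ± 0.15 under EV (adjusted p = 8.98e-07) and 1.69 ± 0.14 under ash-2 RNAi (SE). At L3 it rose in glp-1 worms by 0.36 ± 0.07 under EV and by 0.23 ± 0.07 under ash-2 RNAi (SE), the second of which did not pass without WT ash-2 RNAi replicate 2 (0.20). Its other probe set gave 1.21 on day 8 under EV and did not pass at L3 under ash-2 RNAi.

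**Figure D3:**
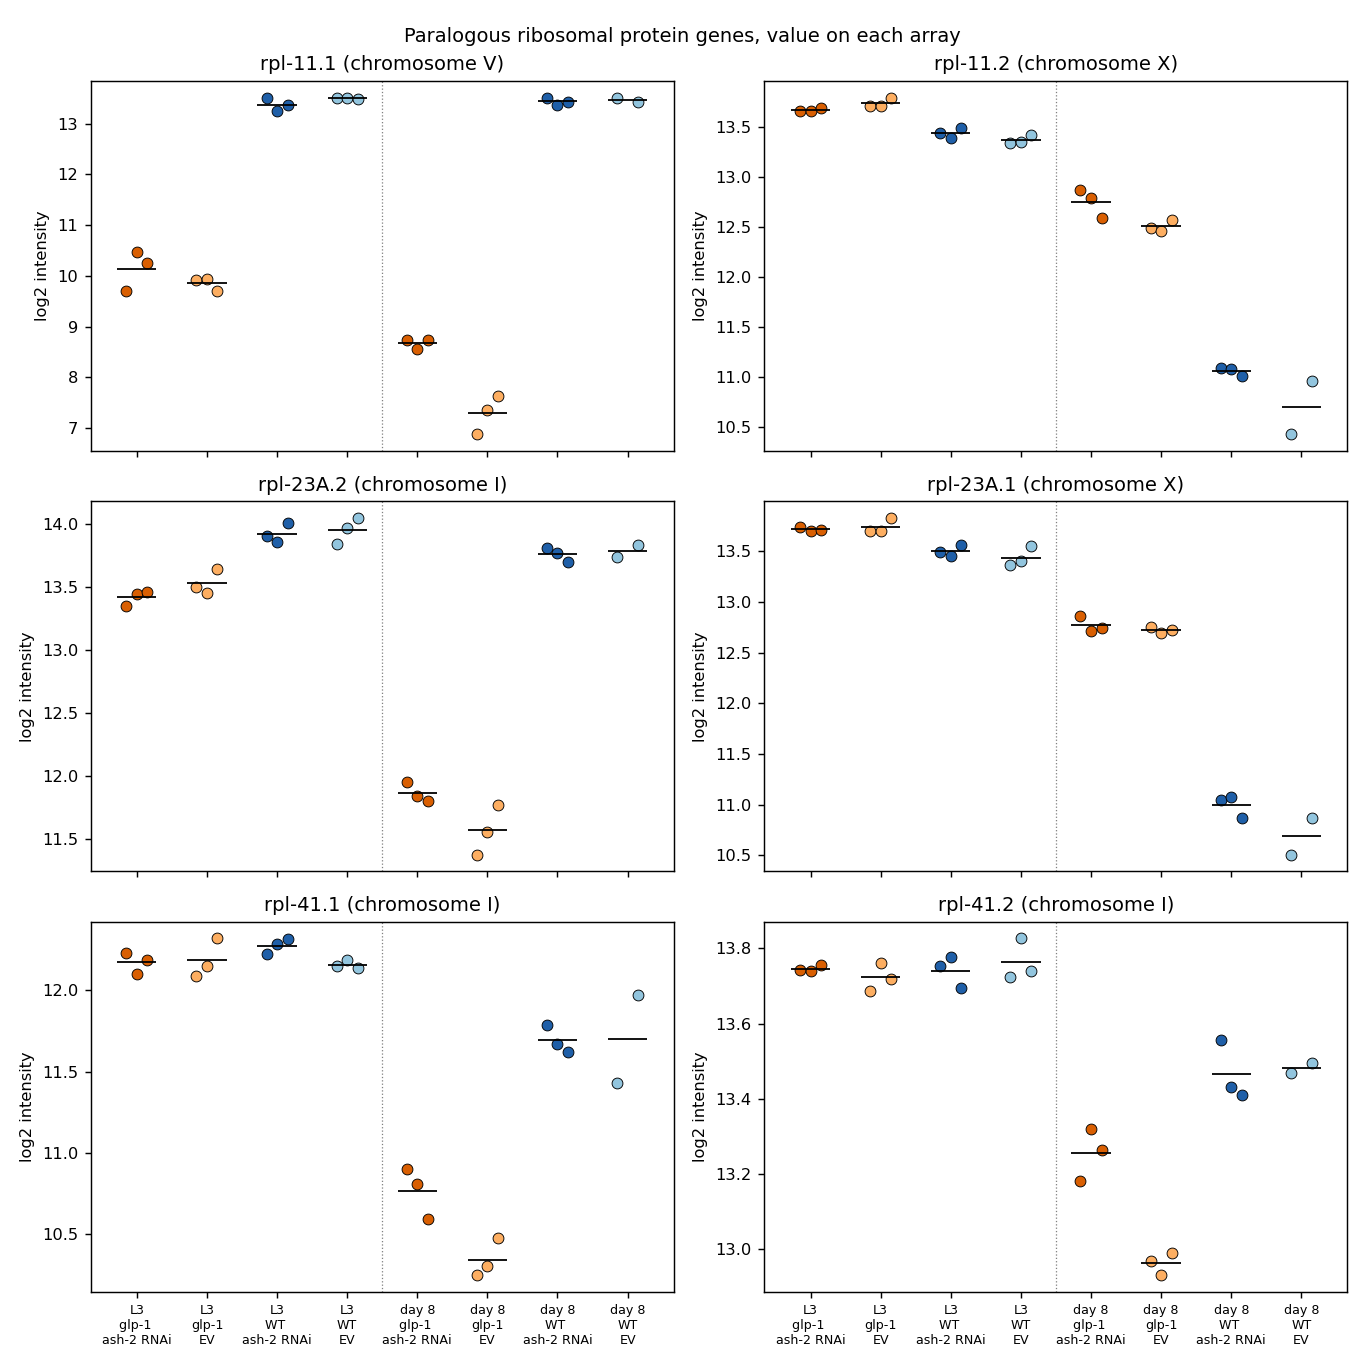
Log2 intensity of the 6 genes of the numbered pairs on each of the 23 arrays, with a bar at each group mean and separate vertical scales. In day 8 glp-1 worms rpl-11.1 and rpl-23A.2 are below and rpl-11.2 and rpl-23A.1 above the WT worms, while both rpl-41 genes are below WT worms.

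The rpl-23A pair showed the same opposition at a smaller scale. On day 8 rpl-23A.2 read 11.38, 11.56 and 11.77 in glp-1 worms under EV, against 13.74 and 13.83 in WT worms under EV, a difference of -2.22 ± 0.13 (SE, adjusted p = 3.25e-08). Its X-linked partner rpl-23A.1 read 12.76, 12.69 and 12.73 in glp-1 worms under EV, against 10.51 and 10.87 in WT worms under EV, a difference of 2.04 ± 0.13 (SE, adjusted p = 7.10e-08). Neither gene's genotypes overlapped. Under ash-2 RNAi the differences were -1.90 ± 0.11 for rpl-23A.2 and 1.78 ± 0.11 for rpl-23A.1 (SE).

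At L3 the rpl-23A genes differed in the same directions. The difference was -0.42 ± 0.09 for rpl-23A.2 and 0.30 ± 0.08 for rpl-23A.1 under EV (SE). Under ash-2 RNAi it was -0.50 ± 0.09 and 0.21 ± 0.08 for the same 2 genes (SE), and the call of rpl-23A.1 there was lost in 5 of 6 cases when 1 array was left out. The interaction between genotype and age was -2.52 ± 0.25 for rpl-11.1, 1.45 ± 0.16 for rpl-11.2, -1.79 ± 0.14 for rpl-23A.2 and 1.73 ± 0.14 for rpl-23A.1 (SE). These 2 X-linked genes are the only members on that chromosome. Both rose on day 8 under EV, whereas 74 of the 76 autosomal members fell and 0 rose. The share of all X-linked genes of the array that rose is not given here, so this may not be particular to these pairs. Of the 4 probe sets only that of rpl-23A.2 is not of the kind that can bind several transcripts, so some signal of a pair may be shared.

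The rpl-41 genes both lie on chromosome I and both fell on day 8 under EV, by unequal amounts. The gene rpl-41.1 read 10.25, 10.30 and 10.48 in glp-1 worms and 11.43 and 11.97 in WT worms, a difference of -1.36 ± 0.16 (SE). The gene rpl-41.2 read 12.97, 12.93 and 12.99 in glp-1 worms and 13.47 and 13.49 in WT worms, a difference of -0.52 ± 0.10 (SE). Neither gene's genotypes overlapped. Under ash-2 RNAi the differences were -0.92 ± 0.15 for rpl-41.1, which passed, and -0.21 ± 0.09 for rpl-41.2, which did not (SE, adjusted p = 0.0702). At L3 neither passed. Both are read only from probe sets of the kind that can bind several transcripts, so some of their signal may be shared. The difference between these genes was not tested.

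Few ribosomal protein genes differed under ash-2 RNAi. At L3 none of the 78 passed in glp-1 worms or in WT worms (limma), against 0.798% and 0.328% of all probe sets, and none had an unadjusted p under 0.05. Since the variances were drawn toward those of all probe sets, small differences of these genes could go unseen. None passed under the other settings tried either, apart from leaving out single arrays. The medians were -0.04 in glp-1 worms and 0.00 in WT worms. In glp-1 worms every ash-2 RNAi array was below every EV array for 17 genes (21.8%, against 7.47% of all probe sets). The widest single difference in glp-1 worms was that of rpl-11.1, at 9.69, 10.47 and 10.25 under ash-2 RNAi and 9.91, 9.95 and 9.69 under EV. Its groups overlapped, and its difference of 0.29 did not pass. Without glp-1 ash-2 RNAi replicate 1, which was low in oocyte markers, rpl-11.1 alone passed in L3 glp-1 worms (0.51, adjusted p = 0.0448), and without that array and glp-1 EV replicate 3 no gene passed (rpl-11.1 at 0.43, adjusted p = 0.0761). The part of those markers in the values of rpl-11.1 was not tested.

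In WT worms on day 8, too, none passed (limma, and in each other setting tried), against 1.47% of all probe sets, and 2 had an unadjusted p under 0.05. Those were rpl-11.2 (0.36 ± 0.15) and rpl-23A.1 (0.31 ± 0.13) (SE), both X-linked, with adjusted p = 0.534 and 0.507. The median was 0.05, with every ash-2 RNAi array above both EV arrays for 24 genes (30.8%, against 14% of all probe sets). The gene rpl-11.1 read 13.50, 13.37 and 13.43 under ash-2 RNAi and 13.51 and 13.42 under EV, with overlapping groups.

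In glp-1 worms on day 8, ash-2 RNAi went with a small upward difference over most of the genes, of which few passed singly. Of the 78 genes, 6 rose and 0 fell (limma), which is 7.69% against 7.18% of all probe sets that rose, so this count is at the background (7.63% of all probe sets fell). The median difference was 0.17, against 0.03 over all probe sets, with 72 genes above 0. Every ash-2 RNAi array was above every EV array for 49 genes (62.8%, against 16% of all probe sets). These genes share 6 arrays, so their common difference is not 49 separate observations. The median was positive under every scaling and with each array left out, where it ranged from 0.13 to 0.20.

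**Figure D4:**
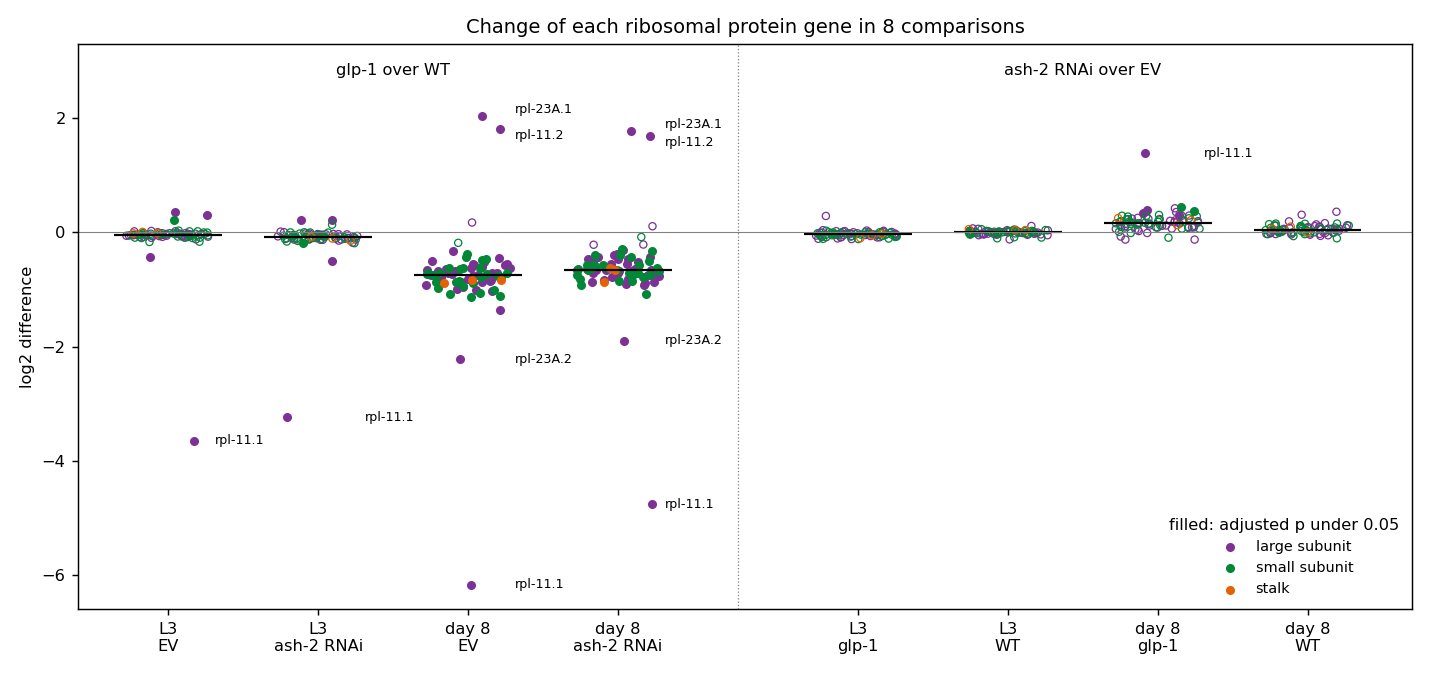
Log2 difference of each of the 78 genes in the 4 genotype comparisons (left) and the 4 RNAi comparisons (right), with filled points for an adjusted p under 0.05 and a bar at the median. Most genes fell in both day 8 genotype comparisons, and in the RNAi comparisons only rpl-11.1 in day 8 glp-1 worms is far from 0.

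The gene rpl-11.1 rose most in that comparison. At 8.73, 8.56 and 8.74 under ash-2 RNAi and 6.88, 7.36 and 7.63 under EV, its groups did not overlap, and it was 1.38 ± 0.16 higher (SE, 2.61-fold, adjusted p = 2.95e-04). It passed with each of the 6 arrays left out. The small subunit gene rps-15 read 12.39, 12.40 and 12.40 under ash-2 RNAi and 11.76, 12.02 and 12.08 under EV, a difference of 0.45 ± 0.11 (SE, adjusted p = 0.0179). Its groups did not overlap either, and its call was lost without glp-1 EV replicate 1 (0.35).

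The other 4 that rose were rpl-29 (0.39), rps-9 (0.38), rpl-5 (0.35) and rpl-36A (0.31), with adjusted p from 0.0242 to 0.0466. They lost the call in 3, 4, 5 and 6 of 6 cases when 1 array was left out. The other probe set of rps-9 did not pass. Without glp-1 EV replicate 1 only 1 gene of the 78 passed, and 2 passed without glp-1 EV replicate 2 or without glp-1 ash-2 RNAi replicate 1. The number was also set by the model, with 1 gene passing when only the 6 arrays compared were fitted and 17 with trended and robust variances. The stalk genes read 0.22, 0.13 and 0.25 higher for rplp-0, rplp-1 and rplp-2.2, and none passed. The other gene of the pair, rpl-11.2, was at 0.24 and did not pass.

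Other genes moved in the same comparison. Of the germline markers 3 of 12 rose (glh-1, gld-1 and syp-1) and of the oocyte markers 4 of 10 rose (oma-2, egg-3, cpg-1 and cpg-2), with list medians of 0.17 and 0.65. Of all probe sets 7.18% rose and 7.63% fell. Some germline markers read lower instead, such as cgh-1, at 8.29, 8.27 and 7.98 under ash-2 RNAi and 8.43, 8.85 and 8.35 under EV. The summed germline signal overlapped between the groups, at 9.73 to 9.87 under ash-2 RNAi and 9.81 to 9.96 under EV. Of the intestine markers 4 of 8 fell, with a median of -0.54. Their part in the ribosomal result was not tested.

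The responses to ash-2 RNAi were also compared directly. On day 8 the response in glp-1 worms minus that in WT worms passed for 1 gene, rpl-11.1 (1.41 ± 0.24, SE, adjusted p = 0.0111), which is 1 of 78 against 1.67% of all probe sets that were positive and 4% in either direction. The median was 0.11. The same contrast is the effect of RNAi on the genotype difference, so among the genes only rpl-11.1 had a genotype difference on day 8 shown to depend on ash-2 RNAi. At L3 the contrast passed for 0 of the 78 genes and for 0 of all probe sets (limma, 0%), with 0 of the 78 at an unadjusted p under 0.05.

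Between ages, the response on day 8 minus that at L3 passed for 8 genes in glp-1 worms, all positive (10.3%, against 4.18% of all probe sets that were positive and 9.73% in either direction). They were rpl-11.1 (1.10), rps-15 (0.52), rps-9 (0.48), rpl-32 (0.40), rpl-29 (0.40), rpl-5 (0.38), rps-5 (0.37) and rplp-2.2 (0.35). With 1 array left out the count was 13 without day 8 glp-1 EV replicate 3, 3 without day 8 replicate 1 of either treatment, and 4 or 5 without day 8 glp-1 EV replicate 2 or any of the 6 L3 glp-1 arrays. Under other settings it ranged from 2, without both L3 glp-1 arrays low in oocyte markers, to 23. In WT worms 0 passed (limma), against 1.55% of all probe sets, and 0 had an unadjusted p under 0.05.

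Ribosomal and ribosome-bound proteins outside the naming rule moved as the members did. The stalk gene rplp-2.1, a second gene for the P2 protein, differed by -0.72 on day 8 under EV and by -0.67 under ash-2 RNAi between glp-1 and WT worms. The small subunit gene rpsa-1 differed by -0.71 and -0.48 in the same 2 comparisons, and all 4 passed. The scaffold gene rack-1, whose product binds the small subunit, read 12.51, 12.55 and 12.46 in glp-1 worms and 13.16 and 13.20 in WT worms under EV, a difference of -0.67. The ubiquitin fusion gene ubq-2 read 11.96, 12.12 and 11.94 in glp-1 worms and 12.39 and 12.42 in WT worms, a difference of -0.40. In both genes the genotypes did not overlap and the fall passed.

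Other lists of translation and TOR pathway genes were read beside the ribosomal proteins. On day 8 under EV their medians too were negative for glp-1 over WT worms. Ribosomal protein genes outside the rpl-11 and rpl-23A pairs lay closer together than the genes of each of these lists. Of all probe sets 26.6% fell and 28.3% rose. Among elongation and release factors 7 of 11 fell and 2 rose, with a median of -0.65. The gene iff-1, a germline-required form of eIF5A in C. elegans, read 5.61, 5.93 and 5.77 in glp-1 worms against 13.26 and 13.35 in WT worms, a difference of -7.54. Its partner iff-2 rose by 1.46. The elongation factor genes eef-1A.1 and eef-1A.2, which deliver amino acids to the ribosome, differed in sign, at -0.68 and 1.24.

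Among initiation factors 17 of 22 fell and 2 rose, with a median of -1.26. The gene ife-3, for a protein that binds the cap of messages, read 7.23, 7.69 and 7.34 in glp-1 worms against 11.32 and 11.32 in WT worms, a difference of -3.90 without overlap. The gene eif-3.I, for a subunit of the factor that primes the small subunit, differed by -4.02, but its glp-1 arrays read 3.77 to 4.18, below their array medians, so the size of that difference is uncertain. Among ribosome biogenesis genes 23 of 25 fell and 1 rose, with a median of -2.06. There fib-1, for the nucleolar methyltransferase fibrillarin, read 9.96, 10.09 and 9.97 in glp-1 worms against 12.81 and 12.69 in WT worms, a difference of -2.74. The groups did not overlap. Another nucleolar gene, nol-58, differed by -3.48. Of the TOR pathway genes 7 of 12 fell and 2 rose, with a median of -0.67. The genes of that list have unlike roles, so its median does not measure the activity of the pathway.

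**Figure D5:**
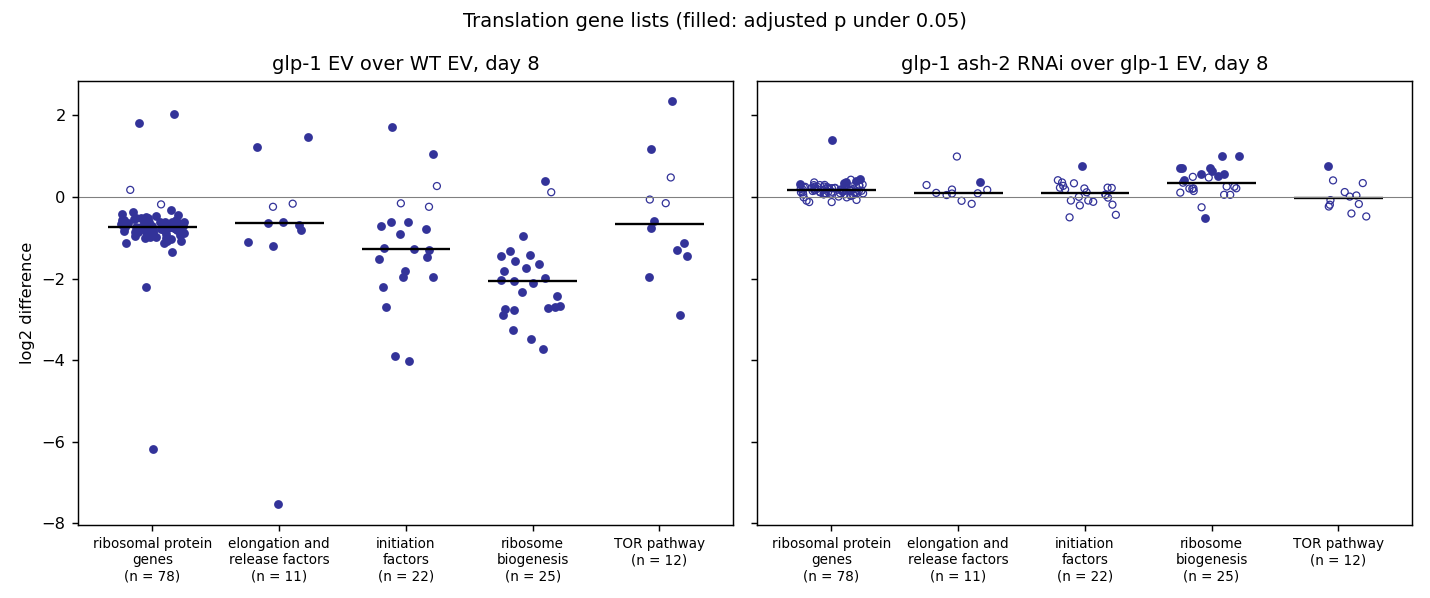
Log2 differences of the ribosomal protein genes and of 4 other translation lists, for glp-1 over WT worms on day 8 under EV (left) and for ash-2 RNAi over EV in day 8 glp-1 worms (right), with bars at the medians and filled points for an adjusted p under 0.05. On the left the biogenesis genes have the lowest median (-2.06), and the ribosomal protein genes outside the rpl-11 and rpl-23A pairs lie closest together. On the right the biogenesis genes have the highest median (0.35).

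At L3 the lists parted. Of the biogenesis genes 21 of 25 fell and 1 rose in glp-1 worms under EV, with a median of -0.76, whereas 2 of the 78 ribosomal protein genes fell. Under ash-2 RNAi at L3 it was again 21 of 25 biogenesis genes, with a median of -0.72. The gene fib-1 read 12.21, 12.14 and 12.21 in glp-1 worms against 12.97, 13.01 and 13.05 in WT worms under EV, without overlap. Initiation factors fell in 10 and rose in 3 of 22 cases, with a median of -0.20, and elongation factors fell in 1 and rose in 1 of 11 cases. Of all probe sets 22.1% fell and 33.4% rose under EV, and 20.8% fell under ash-2 RNAi. The difference between lists was not tested.

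In day 8 glp-1 worms 10 of the 25 biogenesis genes rose under ash-2 RNAi and 1 fell, with a median of 0.35. The gene nol-16 read 8.15, 8.11 and 8.24 under ash-2 RNAi and 7.15, 7.26 and 7.07 under EV, a difference of 1.00 ± 0.12 (SE, adjusted p = 2.77e-04), with no overlap. The genes nol-58 and fib-1 rose by 0.72 and 0.42. In each of the elongation, initiation and TOR lists 1 gene rose and 0 fell, of 11, 22 and 12, which is near the 7.18% of all probe sets that rose.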

How the data were processed

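Biotin-labelled RNA of whole worms was hybridised to 23 arrays, per the labels' protocols. Each deposited value is a log2 intensity of a probe set, summarised by the authors with RMA (per the submitters' processing notes). Neither its version nor the chip definition is given in the sources used here. The ages appear to have been normalized apart. All 22548 probe sets were used without a filter (6 empty cells in 5 probe sets). Of them 20766 name 1 gene, 887 several and 895 none, and 20701 got a current symbol through the RefSeq table (WBcel235). Names ending in _s_at or _x_at (6711) mark probe sets that can bind several transcripts. Of the 78 genes, 48 were read from such a probe set, and 32 have several probe sets. The stalk genes were matched to their current symbols by locus name.

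A linear model in limma 3.58.1 (R 4.3.3) had a mean per group, each age apart (12 and 11 arrays) and contrasts between ages over all 23. Tests are two-sided, with Benjamini-Hochberg adjustment over all probe sets, and "rose" or "fell" means an adjusted p under 0.05. Variances were moderated by limma toward a value common to all probe sets, without a trend by intensity. Medians over genes carry no test. RNAi in glp-1 worms and genotype under EV share the glp-1 EV arrays. The steps were tested on simulated data. Bright probe sets for centring were the 2142 outside the genes in the top 10 percent by mean. Replicate numbers were checked by correlating residuals. For RNAi in L3 WT all 3 pairs of like number deviated together (0.142 to 0.487). Numbers 1 and 2 did so across each other as well (0.241 and 0.213). Only number 3 stood apart, so pairing by number is not shown there, and the labels do not give it. Like numbers were also all positive for RNAi in L3 glp-1 (0.056 to 0.291) and for genotype at L3 under EV (0.097 to 0.199). Unlike numbers there ranged from -0.202 to 0.081 and from -0.171 to 0.035. Whether L3 arrays of 1 number share a batch is not in the labels.

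The genes, lists and alternatives were chosen with earlier results of these data known. Genes named are, per comparison, the 6 largest rises and falls past the threshold, the 2 farthest from the genes' median on each side, the stalk genes, the numbered pairs, and up to 4 genes by p in a list with at least 3 passing. The text gives a selection. The germline, oocyte, sperm, intestine, muscle and neuron lists serve as markers. Alternatives were the scalings, averaged probe sets per gene, probe sets that bind 1 transcript only, leaving out the dimmest 40 percent, trended and robust variances, only the arrays compared, replicate blocks and leaving out each array. No sequence is shown, since none was available for these genes here.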

Additional observations from a re-analysis of the deposited data

Results flagged for a closer look

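Each result here is a difference between the effects of one contrast in 2 groups, tested as an interaction in limma with adjustment over all probe sets. The difference between glp-1 and WT worms under EV changed from L3 to day 8 for 77 of the 78 ribosomal protein genes, against 24.5% of all probe sets with a positive and 28.2% with a negative difference. With 1 of the 11 arrays left out the count was 74 to 76. The call of rps-29 was lost in 9 cases and that of rpl-7 in 6, and rps-29 was at -0.14 without day 8 WT EV replicate 1, against -0.32 with all arrays. The value on day 8 minus that at L3 was -2.52 for rpl-11.1 and -1.79 for rpl-23A.2, and 1.73 for rpl-23A.1 and 1.45 for rpl-11.2. On day 8 the response to ash-2 RNAi differed between genotypes for rpl-11.1, by 1.41 (glp-1 minus WT).

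In glp-1 worms the response to ash-2 RNAi on day 8 minus that at L3 was 1.10 for rpl-11.1, 0.52 for rps-15, 0.48 for rps-9, 0.40 for rpl-32, 0.40 for rpl-29, 0.38 for rpl-5, 0.37 for rps-5 and 0.35 for rplp-2.2. Leaving out 1 of the 12 arrays ended the call of rpl-32 and rplp-2.2 in 10 cases each, of rpl-5 in 8, of rpl-29 in 7 and of rps-5 in 3. The 2 ages appear to have been normalized apart, which an interaction carries only where it acts unequally on the groups.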

How the results depend on the processing

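Besides the alternatives listed at the outset with earlier results known, 2 were added on seeing the arrays here, the replicate block with only the 6 arrays of L3 WT and leaving out both L3 glp-1 arrays low in oocyte markers. Leaving single arrays out aside, 99 of 119 counts stayed within 1.5 times the reported one and 105 of 119 medians moved by less than 1 SD between replicates. The median for genotype at L3 under EV changed sign with the scale. With 1 array left out in turn, no value of a single gene reversed. Of 318 such values 295 kept their call each time, and the other 23 lost it in at least 1 case.

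Centring on array medians gave medians of -0.079 for RNAi in L3 glp-1, 0.064 and -0.0032 for genotype at L3 under EV and RNAi, -0.82 and -0.72 on day 8, and 0.26 and -0.89 for the RNAi by age (glp-1) and genotype by age interactions. Its counts were 10 for RNAi in day 8 glp-1 and 19 for RNAi by age in glp-1. Centring on bright probe sets gave medians of -0.11 for genotype at L3 under EV, -1.01 and -0.90 on day 8 under EV and RNAi, 0.0075 for RNAi by genotype at L3 and -0.91 for genotype by age. Quantile normalization gave medians of 0.0027 and -0.020 for genotype at L3, and counts of 11 and 15 for RNAi in day 8 glp-1 and RNAi by age in glp-1. Probe sets that bind 1 transcript, read for 37 genes, gave counts of 3 for RNAi in day 8 glp-1, 1 and 3 for genotype at L3, 35 and 35 on day 8, 0 for RNAi by genotype on day 8, 3 for RNAi by age in glp-1 and 35 for genotype by age. That setting reads fewer genes and also another probe set for some of them. Trended and robust variances gave 17 for RNAi in day 8 glp-1, 17 for genotype at L3 under RNAi and 23 for RNAi by age in glp-1, and only the arrays compared gave 1 for RNAi in day 8 glp-1. Without both L3 glp-1 arrays low in oocyte markers the counts were 3 for genotype at L3 under RNAi and 2 for RNAi by age in glp-1. The causes were not tested.

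With the replicate number as a block, 3 genes passed for RNAi in day 8 glp-1 and 5 for RNAi by age in glp-1. The numbers are not shown to pair samples there (correlations -0.19 to -0.05 on day 8 and 0.06 to 0.29 at L3). In L3 WT, where like numbers deviated together but are not shown to pair, 0 passed with or without the block. The block moved no other count by over 1.5 times.

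With 1 array left out in turn, the count and median ranged, in the order RNAi in L3 WT, L3 glp-1, day 8 WT and day 8 glp-1, from 0 to 0 and -0.02 to 0.02, from 0 to 1 and -0.04 to -0.02, from 0 to 0 and 0.04 to 0.06, and from 1 to 7 and 0.13 to 0.20. For genotype at L3 they ranged from 4 to 5 and -0.06 to -0.03 under EV and from 3 to 4 and -0.09 to -0.07 under RNAi, and on day 8 from 73 to 76 and -0.78 to -0.71 and from 71 to 74 and -0.69 to -0.61. For RNAi by genotype they ranged from 0 to 0 and -0.05 to -0.02 at L3 and from 1 to 1 and 0.068 to 0.14 on day 8, for RNAi by age from 0 to 0 and 0.03 to 0.06 in WT and from 3 to 13 and 0.17 to 0.24 in glp-1, and for genotype by age from 74 to 76 and -0.73 to -0.68. Where day 8 WT EV was left with 1 array, it was assumed to vary like the other groups.

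Probe sets of a gene disagreed on the call for 1 of 32 genes for genotype on day 8 under EV (rpl-12) and 3 under RNAi. For genotype at L3 under RNAi they disagreed for 6 (rpl-11.2, rpl-26, rps-16, rps-19, rps-21 and rps-3). For RNAi in day 8 glp-1 it was 5 (rpl-13A, rpl-35, rps-11, rps-5 and rps-9). It was 5 for RNAi by age in glp-1, rps-9 among them, and 2 for genotype by age. No calls went in opposite directions. The genes lie near the top of the scale (highest value on any array 15.07), where an array can understate differences, and this was not tested.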

Other observations

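Chromosomes were looked at in the other translation lists after the opposite changes of the X-linked ribosomal protein genes had been seen, so what follows is a description. On day 8 under EV the genes of those lists that rose in glp-1 worms included eef-1A.2 (1.24), the cap-binding gene ife-2 (1.06), the poly(A)-binding protein gene pab-2 (1.71), the kinase gene aak-2 (1.17) and the kinase gene sgk-1 (2.35), all on the X chromosome. The other 2 that rose were iff-2 (1.46) on chromosome II and ncl-1 (0.39) on chromosome III. The remaining X-linked gene of the lists, ife-4, was at 0.27 and did not pass, and no X-linked gene of these lists fell. How the X-linked genes of the whole array changed is not given here.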
